A study of Mus musculus with 5 samples.

Results

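The cells described here are the hormone-sensing luminal cells of the mouse mammary gland that carry Prlr, the receptor for the hormone prolactin. They were found by a rule on UMIs (unique molecular identifiers, each standing for 1 captured transcript). A barcode, the tag of 1 droplet, had to show at least 300 genes, at most 20% mitochondrial UMIs and at least 2 UMIs of the luminal keratins Krt8 and Krt18 together. Prlr, Ly6d, Stc2 and Cxcl15 had to sum to at least 5 UMIs per 10000. The milk-lineage genes Csn3, Trf and Wfdc18 had to stay under 30 per 10000, and Upk3a and Fgb under 2 UMIs. No UMI of Ptprc (leukocytes) or Pecam1 (endothelium) was allowed, and fewer than 3 of the 6 cycling genes Top2a, Birc5, Ube2c, Cenpf, Ccnb2 and Mki67. The rule found 4078 cells among the 31872 barcodes of 4 gland libraries, and 34526 barcodes were deposited in the whole series. Because these values chose the cells, none of the genes in the rule is treated as a finding.

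The series is a single-cell RNA-seq study of a Brca1 heterozygous model of replication stress in the mammary gland. BPK mice carried Brca1 wt/flox together with Trp53 flox/flox and Krt14cre. PK mice had Brca1 wt/wt with the same Trp53 flox/flox and Krt14cre, so the floxed Trp53 and the Cre were shared by all groups, the controls included. The Krt14 promoter that drives Cre is active in basal epithelial and skin cells, and in how many hormone-sensing cells the floxed alleles were recombined was not analysed here. Glands received 12 injections into the duct, either of 4NQO, a quinoline carcinogen that forms bulky DNA adducts, or of PBS/PEG vehicle. The hormone-sensing cells numbered 1042 in the single library of BPK vehicle, 1028 in that of PK 4NQO, and 1374 and 634 in BPK 4NQO replicates 1 and 2. The labels used here do not give strain or age, or say whether libraries came from separate or pooled animals. P-values rest on the spread between replicates 1 and 2 of BPK 4NQO, since the other groups had 1 library each. That spread may therefore be technical, and none was measured within the other groups. A tumor library formed after 24 injections was outside the selection.

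In the mammary gland estrogen and progesterone act mainly on a luminal subset that carries their receptors. These cells then signal to their neighbors through secreted factors such as amphiregulin, encoded by Areg, and Wnt4. The prolactin receptor signals through the kinase Jak2 and the transcription factors Stat5a and Stat5b. The pioneer factor Foxa1 opens chromatin for the estrogen receptor, and Gata3 and Tbx3 help to specify the luminal lineage.

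All values by library are given in the order BPK vehicle, PK 4NQO, BPK 4NQO replicate 1, BPK 4NQO replicate 2. The hormone-sensing cells had a median of 5126, 3531, 5202.5 and 3710 UMIs per cell. Libraries shared at most 2 barcodes among these cells. BPK 4NQO replicate 2 stood apart from the other libraries. Gm42418, a gene that overlaps ribosomal RNA, was at 52338 UMIs per 1000000 (CPM) there against 745 to 1024 in the others, and Lars2 was at 925 against 16.6 to 19.1. The summed level of 6 fibroblast markers in the hormone-sensing cells was 1789 CPM in that library and 401 to 551 in the others. Alveolar cells of the same library held the fibroblast markers at 1486 CPM. The tests below also scaled each library by a factor (TMM), which was 0.9303, 0.9335, 0.9361 and 1.23. The CPM values do not carry that factor. Those of replicate 2 therefore lie higher against the other libraries than on the scale of the tests. Trp53 was at 34.1, 39.1, 38.2 and 17.8 CPM. Brca1 had 4, 6, 1 and 5 UMIs, too few to compare. A tag at the transcript's end does not check either genotype.

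The cells matched their label on genes that the rule did not use. Esr1, the estrogen receptor, was at 74.9, 82.8, 64.4 and 76.1 CPM in hormone-sensing cells. In luminal alveolar cells of the same libraries it was at 8.74, 6.78, 9.97 and 13.9 CPM. Alveolar cells here are Krt8/Krt18-positive barcodes with at least 30 per 10000 of Csn3, Trf and Wfdc18 and under 5 per 10000 of the 4 hormone-sensing markers, 3000 cells in all. Esr1 therefore lay above its alveolar level in every library, with no overlap. Pgr, the progesterone receptor, was at 127.5, 158.5, 185.1 and 459.5 CPM, and its alveolar level was 2.75 to 7.64. Foxa1 was at 147.3, 180 (PK 4NQO), 248.6 and 165.2 CPM against 4.24 to 8.22 in alveolar cells. These ratios compare classes cut by correlated genes in the same cells and carry no test.

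The rule's own genes are given as a description. Prlr was at 1711, 2122, 2150 and 3156 CPM, Ly6d, a surface protein, at 3403, 3682, 5261 and 2119, Stc2, a secreted glycoprotein, at 1154, 1134, 1300 and 966, and Cxcl15, a secreted chemokine, at 464.5, 539.6, 644.1 and 342.9. Prlr was highest in replicate 2, where the other 3 were lowest.

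Single-cell detection was incomplete because each cell was sampled shallowly. After every cell was thinned to 2000 UMIs, Prlr was found in 91.6%, 94.2%, 93% and 93% of cells, where the unthinned share in BPK vehicle was 97.1%. Esr1 was found in 13.4%, 14.2%, 12.4% and 13.6% of the thinned cells, nearly the same share in each library. In thinned alveolar cells of BPK vehicle Esr1 was found in 1.67%. Thinned barcodes with at least 2 UMIs of Upk3a and Fgb held Esr1 in 13.5%, 12.7%, 12.8% and 11.7%. They held Pgr in 12.3%, 18.7%, 22.5% and 45.4%. The receptors are thus not particular to the cells described. All 4 markers of the rule were found together in 36.6%, 35.5%, 51.2% and 30.9% of the thinned hormone-sensing cells.

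Few cells lay near the marker threshold. Between 5 and 7.5 per 10000 there were 22, 22, 33 and 16 cells, and just outside, between 2.5 and 5, there were 94, 33, 84 and 24. Krt14, a basal keratin, was at 1351, 4167, 3315 and 1361 CPM in the cells just inside and at 107.9, 164.7, 197.9 and 451.5 over all members. The cells at the edge of the rule thus held basal transcripts at a higher level than the population did. At least 2 UMIs of Krt5 and Krt14 were present in 63, 93, 114 and 58 members, and no UMI of Prlr, Stc2 or Cxcl15 in 18, 19, 44 and 33. The counts of changed genes below were repeated without both kinds of cell.

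**Figure D1:**
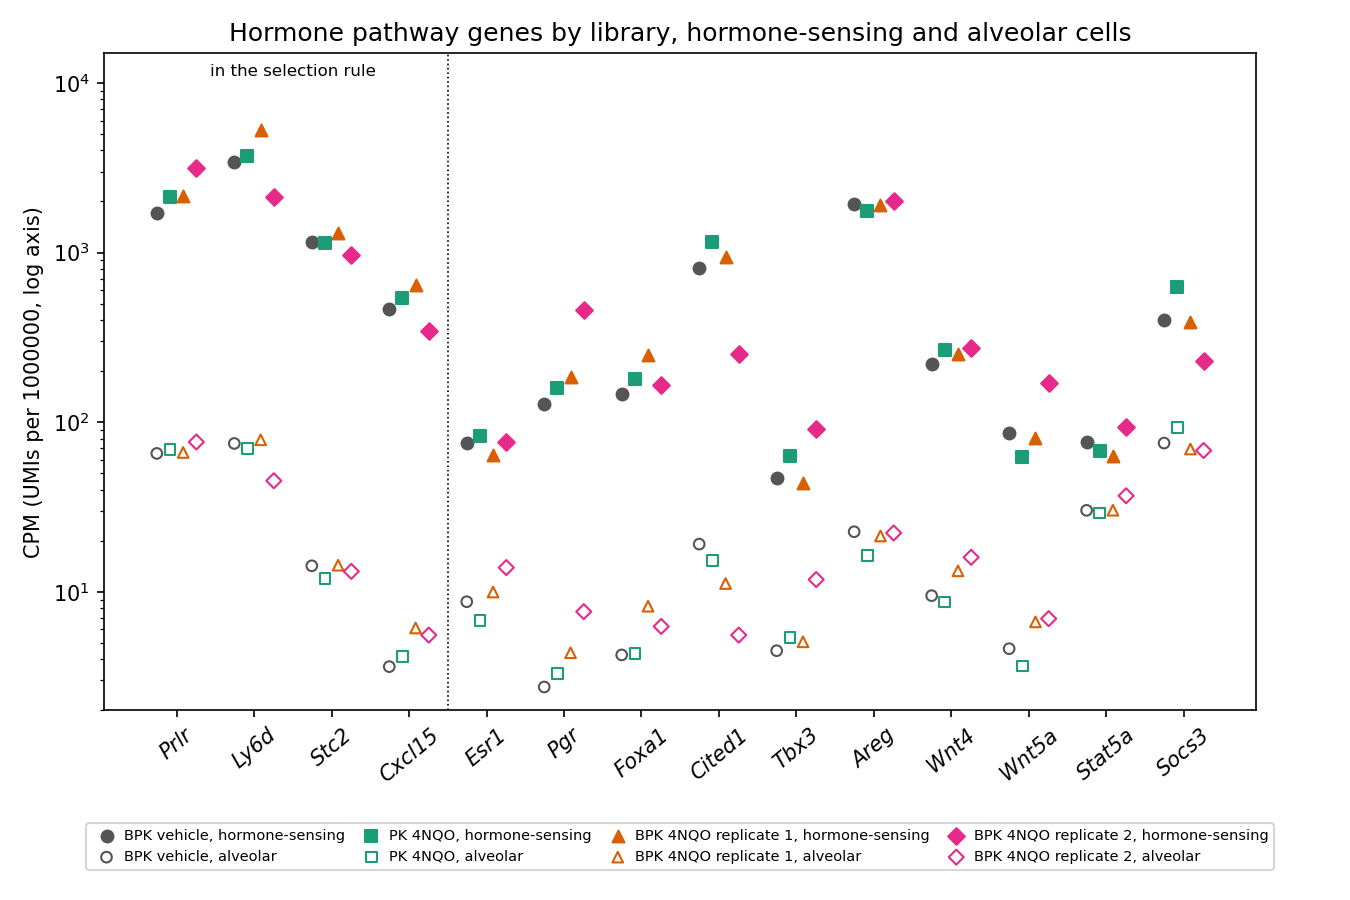
Levels of 14 hormone-pathway genes by library, in CPM on a log axis; filled symbols are hormone-sensing cells and open symbols luminal alveolar cells, 1 symbol per library. The 4 genes left of the dotted line are in the selection rule, and Esr1, at 64.4 to 82.8 CPM in hormone-sensing cells, lies above its 6.78 to 13.9 in alveolar cells.

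The genes that set these cells apart from other Krt8/Krt18-positive barcodes were led by Aoc1, a diamine oxidase. It was at 138.6, 101.5, 260.9 and 361 CPM against 24.5, 21.95, 55.3 and 85.4 in the other barcodes, a log2 ratio of at least 2.07 in each library. Sprr1a, an epithelial cornified-envelope gene, came next with a lowest log2 ratio of 1.68. Tph1, which makes the first step of serotonin synthesis, was at 263.5, 347.4, 229.8 and 370.7 CPM against 65.3, 86.4, 62.7 and 116.8. Among the 20 leading genes were also Glul (glutamine synthetase, 1398 to 2461 CPM), Slc5a5 (the sodium iodide symporter, 179.8 to 409.6), Slc12a2 (a sodium, potassium and chloride cotransporter, 634 to 1978) and Slc7a2 (a cationic amino acid transporter, 333 to 767). Pgr ranked among these 20 genes too, with a lowest log2 ratio of 1.34, though barcodes with Upk3a and Fgb also carried it. Against those barcodes alone the lowest log2 ratios were smaller, at 1.38 for Aoc1, 1.02 for Tph1, 0.83 for Slc5a5 and 0.77 for Glul. Sprr1a, Slc12a2 and Slc7a2 were not among the 10 highest genes there. Several of these traits are thus partly shared with Upk3a/Fgb barcodes. Against the neighboring barcodes with at least 2 UMIs of Upk3a and Fgb, the highest ratio was that of Fxyd2, a regulator of the sodium pump, at 394.7, 207.2, 340 and 451.8 CPM against 53.95, 17.6, 25.2 and 51.1. On the other side stood Spp1 (osteopontin), at 97.3, 94.1, 48 and 86.8 CPM in the cells described against 1038, 1320, 905 and 1052 in Upk3a/Fgb barcodes. Lcn2, an iron-binding acute phase protein, was at 148, 130, 142 and 244 CPM against 819, 994, 949 and 1068. Unlike the cells described, Upk3a/Fgb barcodes had no limit on Csn3, Trf and Wfdc18 and no marker minimum. Those milk-lineage genes and Lalba stood on the same side as Spp1 and Lcn2. How far the Spp1 and Lcn2 gaps follow from this unequal filter was not tested. All of these are descriptions, since the same cells were chosen by genes that vary with them.

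Hormone-sensing cells made up 16.7% of Krt8/Krt18-positive barcodes in BPK vehicle (95% exact Clopper-Pearson interval 15.8 to 17.7, 1042 of 6223). PK 4NQO had a share of 21.5% (20.4 to 22.7). BPK 4NQO replicate 1 had 29.9% (interval from 28.5 to 31.2) and replicate 2 had 28.3% (interval from 26.4 to 30.2). Both BPK 4NQO libraries lay above BPK vehicle, a log2 ratio of 0.80, and above PK 4NQO. The intervals cover counting error only. An exact permutation test of 2 libraries against 1 cannot reach a p under 0.05, and no other test of the share was run. The gap was smaller with other counting. With Upk3a/Fgb barcodes added to the members, the shares were 31.6%, 33.6%, 38.9% and 35.7%. Of all barcodes within the quality limits, hormone-sensing cells were 11.1%, 13.8%, 18.4% and 9.11%, and replicate 2 then lay lowest. Fewer other cells and more hormone-sensing cells cannot be told apart in a share.

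**Figure D2:**
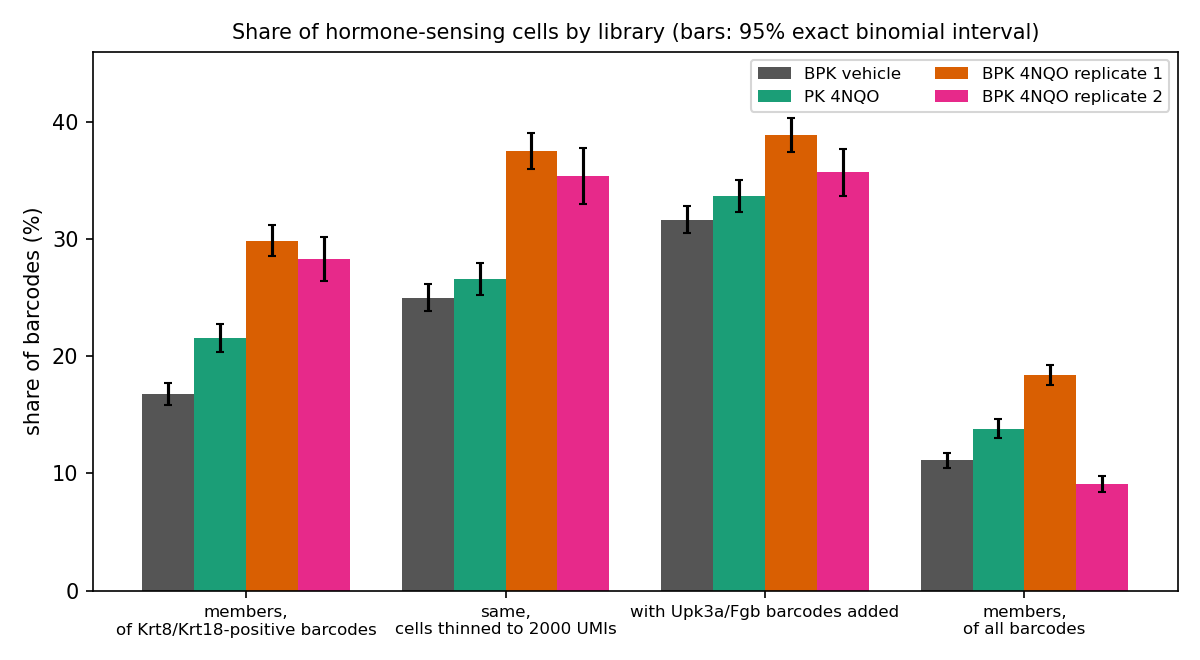
Share of hormone-sensing cells in percent of barcodes, by library (color) and by 4 ways of counting (groups of bars), with 95% exact binomial intervals. Both BPK 4NQO libraries stand above BPK vehicle in the first 3 groups of bars, and replicate 2 falls to 9.11% when all barcodes are counted.

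To ask what 4NQO treatment went with, UMIs of the hormone-sensing cells were summed per library and BPK 4NQO was compared with BPK vehicle by edgeR's quasi-likelihood test over 12068 genes. At an adjusted p under 0.05, 14 genes rose (0.116% of those tested) and 5 fell (0.0414%). DESeq2 called 3 in each direction. The genes of hormone reception did not pass. None of 10 steroid and growth hormone receptor genes passed the edgeR test, none had an unadjusted p under 0.05 and DESeq2 called none. The same held for 9 tested genes of paracrine signaling, 10 of the prolactin pathway and 12 lineage transcription factors. Their median log2 changes were 0.14, -0.01, -0.07 and 0.09, beside 0.00 over all genes tested. With 1 residual degree of freedom, a missed threshold does not show that a level stayed the same.

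Among the hormone effectors, Areg was at 1919, 1762, 1901 and 2005 CPM, and the 4 libraries differed little on the CPM scale. Wnt4, a paracrine signal downstream of progesterone, was at 220 (BPK vehicle), 266, 252 and 274 CPM. Wnt5a was at 86.2, 62.4, 81.1 and 169.9, with replicate 2 the highest. Tnfsf11, which encodes the progesterone effector RANKL, had only 2, 9, 6 and 4 UMIs, and Calca had 0, 3, 6 and 0. Both were near the limit of detection here.

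Several genes of this axis differed more between the 2 BPK 4NQO libraries than between replicate 1 and BPK vehicle. Of these, Pgr, Gata3 and, narrowly, Jak2 were also higher in replicate 1 than in BPK vehicle and PK 4NQO. Pgr was at 459.5 CPM in replicate 2 and at 127.5 to 185.1 in the other 3 libraries. After thinning, Pgr was found in 57.6% of the cells of replicate 2 and in 21.4%, 24.2% and 28.1% of the others. Cited1, a transcriptional coregulator of the estrogen response, was at 814.8, 1158, 947 and 253.7 CPM, and replicate 2 was the lowest. Msx2, a homeobox factor, was at 53, 55.6, 53.6 and 16.4 CPM, again lowest in replicate 2. Jak2 was at 41.8, 30.8, 42.6 and 95.2 CPM, and Gata3 at 345.8, 362.5, 454.1 and 726.3, both highest in replicate 2. Socs3, a feedback inhibitor of Jak signaling, was at 399.3, 625.4, 389.9 and 229.6, and Stat5a at 76.3, 67.4, 63 and 93.2. What sets replicate 2 apart, its library preparation or its gland, cannot be told apart in this design.

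The naming rule gave Ctsr and Cst6 as called genes with a mean level of at least 32 CPM, and Ctsr did not rest on 1 cell. Ctsr encodes a cathepsin protease of a family best known from the placenta, and lies on chromosome 13 from 61159204 to 61164256 (GRCm38, minus strand). It was at 4.07, 1.58, 103.8 and 392.2 CPM. Both BPK 4NQO libraries lay far above the other 2. The log2 fold change against BPK vehicle was 5.61 (SE 1.36, adjusted p = 0.0277 by edgeR), and DESeq2 also called it (adjusted p = 1.65e-06). The change was 6.19 without replicate 1 and 4.67 without replicate 2. With cells thinned to 2000 UMIs it was 4.92 and no longer passed (adjusted p = 0.128).

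Ctsr UMIs were found in a minority of cells. Of 1042 cells in BPK vehicle 11 held at least 1 UMI (1.06%, 0.528 to 1.88), and of 1028 in PK 4NQO 5 did (0.486%, 0.158 to 1.13). In BPK 4NQO there were 136 of 1374 (9.9%, 8.37 to 11.6) and 83 of 634 (13.1%, 10.6 to 16). The highest single cells held 181 of 899 and 144 of 1170 UMIs in the 2 BPK 4NQO libraries, and the median of positive cells was 2 and 5. Alveolar cells of the 4 libraries held 0, 0, 6 and 0 Ctsr UMIs, and basal cells 0, 0, 0 and 1. The change of Ctsr in hormone-sensing minus alveolar cells was 0.05 on the log2 scale by edgeR and was not called. With 0 alveolar UMIs in BPK vehicle, that test cannot decide whether the changes differed. In alveolar cells of replicate 2, 0 of 325 cells allows a share of cells with a UMI of up to 1.13% by the exact interval. Upk3a/Fgb barcodes held it at 2.11, 1.12, 39.7 and 285 CPM, also highest in BPK 4NQO. Without the top cell of each library the call stayed (log2 6.21, adjusted p = 0.0149 by edgeR).

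**Figure D3:**
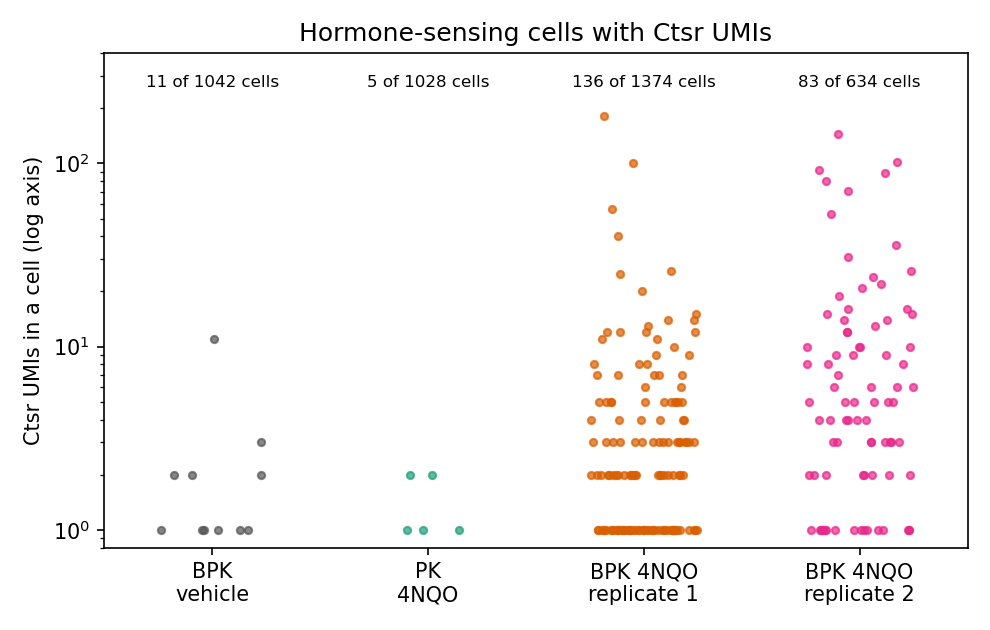
UMIs of Ctsr in each hormone-sensing cell that held any (y axis, log), by library (x axis, with random horizontal offsets); 1 point is 1 cell. In BPK 4NQO there were 136 of 1374 and 83 of 634 such cells, against 11 of 1042 in BPK vehicle and 5 of 1028 in PK 4NQO.

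The receptors were present in cells with and without Ctsr. After thinning to 2000 UMIs, Ctsr-positive cells held Esr1 in 15.3% of 72 cells of replicate 1 and in 16.7% of 60 of replicate 2, and Ctsr-negative cells in 12.3% and 13.2%. Pgr was found in 27.8% of positive against 28.1% of negative cells of replicate 1, and in 73.3% against 55.3% in replicate 2. Cxcl15 was found in 81.9% against 62.5% and in 58.3% against 38.6%. Iigp1, an interferon-induced GTPase, was found in 33.3% of positive against 13.7% of negative cells of replicate 1, and in 61.7% against 31.3% in replicate 2. Areg was found in 63.9% of positive against 70.3% of negative cells, and in 48.3% against 73.3%. Cells of 1 library are not replicates, and these shares carry no test.

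Of the 9 other genes on the list of placental-type cathepsins and Prl8a9, only Ctsj had enough UMIs to be tested. It lies 159025 bases from the start of Ctsr and had 2, 1, 29 and 33 UMIs, with a log2 change of 4.11 (SE 1.44) that did not pass (adjusted p = 0.675 by edgeR). A further gene model of the region, 4930486L24Rik, lies 316592 bases away and was picked out after its values were seen. It was at 1.72, 1.58, 4.04 and 77.8 CPM and rose by a log2 change of 4.16 (adjusted p = 0.0195 by edgeR), which was 1.23 without replicate 2. DESeq2 did not call it (adjusted p = 0.793), and 76 of its 232 UMIs in replicate 2 were in 1 cell, without which the edgeR call was lost (adjusted p = 0.0873). Related cathepsin genes sit in this cluster, and the labels do not say how any reads shared between them were counted.

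Of 20 listed epithelial cytokine and acute phase genes 15 were tested, and 3 rose in BPK 4NQO: Cxcl9, Cxcl5 and Saa3. DESeq2 called none of the 3. Cxcl9, a chemokine induced by interferon gamma that attracts T cells, had 0, 1, 68 and 71 UMIs. Against the floor of 3 UMIs set for a library with none, its mean level in BPK 4NQO was at least 33.7-fold higher than in BPK vehicle. These UMIs came from 19 cells of replicate 1 and 30 of replicate 2. The other 2 rested on single cells. Saa3, a serum amyloid, had 322 UMIs in replicate 1, of which 221 were in 1 cell, and Cxcl5, a neutrophil chemokine, had 90, of which 67 were in 1 cell. Without the top cell of each library Cxcl9 still passed, and Saa3 and Cxcl5 did not. Cxcl9 no longer passed edgeR's test with doublets removed (adjusted p = 0.0808) or with thinned cells (adjusted p = 0.0919).

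Of 16 listed interferon gamma-induced genes 13 were tested, and Ubd rose, by edgeR and by DESeq2. Ubd encodes a ubiquitin-like modifier and had 2, 1, 114 and 105 UMIs, in 2, 1, 45 and 25 cells. Its mean level in BPK 4NQO was 77.3-fold that in BPK vehicle, with a counting interval of 21.4 to 638 for the 2 UMIs there. The edgeR log2 change was 5.89 (SE 1.15, adjusted p = 0.000447). Alveolar cells rose too. On the scale of log2(CPM + 0.5), Ubd changed by 4.92 in hormone-sensing and 5.82 in alveolar cells, and Cxcl9 by 5.03 and 5.99. The difference between the classes was not called for either gene. Ccl8, a monocyte chemokine named after its values were seen, had 5, 35, 199 and 123 UMIs and also rose (log2 5.07, adjusted p = 0.00201 by edgeR, called by DESeq2). Ccl8 no longer passed edgeR's test with doublets removed (4.03, adjusted p = 0.0514) or with thinned cells (5.05, adjusted p = 0.0595).

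Type I interferon genes had higher values in BPK 4NQO but did not pass one by one. Of 20 type I interferon-stimulated genes 18 were tested. None passed edgeR's or DESeq2's threshold, 9 had an unadjusted p under 0.05, and all 18 had a positive log2 change with a median of 1.64. Over all 12068 genes tested, 234 had an unadjusted p under 0.05 and 6021 had a positive change. Isg15, a ubiquitin-like protein induced by interferon, was at 11.7, 25.6, 37.8 and 71.7 CPM. Rsad2, which encodes viperin, was at 2.97, 2.26, 6.35 and 69 CPM and had a log2 change of 3.28 (SE 0.91, adjusted p = 0.141 by edgeR). In Isg15 PK 4NQO lay between BPK vehicle and both BPK 4NQO libraries, and replicate 2 was the highest in both genes.

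MHC class II genes, which present antigen mostly on professional antigen-presenting cells, had a median log2 change of 2.25 over 5 tested of 7, of which 3 were positive, and none passed edgeR or DESeq2 (3 had an unadjusted p under 0.05). Cd74, the invariant chain, was at 22.8, 48.6, 109.9 and 202.8 CPM, and after thinning was found in 1.37%, 1.6%, 5.45% and 17.5% of cells. In thinned alveolar cells Cd74 was found in 1.36%, 3.43%, 12.9% and 17.8%. Markers of macrophages were also highest in replicate 2, in hormone-sensing and in alveolar cells. Their summed level was 34.7, 28.5, 68.2 and 155.9 CPM in hormone-sensing cells and 12.6, 10.6, 11.9 and 90.3 CPM in alveolar cells, and 6, 5, 6 and 6 of 6 were detected in the former. B cell markers summed to at most 0.67 CPM and T cell markers to at most 7.04. The part of macrophage transcripts in the MHC class II and Ccl8 values was not tested.

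Genes of the DNA damage response did not pass. Of 17 p53 target genes tested (of 18), 15 NRF2 targets (of 16) and 17 genes of bulky adduct repair and damage response (of 18), none passed edgeR, none had an unadjusted p under 0.05 and DESeq2 called none. Their median log2 changes were 0.06, 0.20 and 0.08. Cdkn1a, the p53 target that halts the cell cycle, was at 87.1, 67.2, 95.3 and 104.6 CPM. Mdm2, which degrades p53, was at 24.7, 25.3, 25.3 and 53.3 CPM, and Trp53inp1 at 105.9, 74.4, 152.3 and 299.7, both highest in replicate 2. Gadd45a, a damage-response gene, was at 168.6, 180.3, 251.4 and 118.7 CPM. None of these 4 genes set both BPK 4NQO libraries apart by more than their own difference.

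The remaining lists also had no called gene in this comparison. Replication and growth genes (18 tested) had a median log2 change of 0.05, and immediate early and heat shock genes (16 tested), which mark stress during tissue dissociation, had -0.12. No gene of either list had an unadjusted p under 0.05. Luminal surface genes (12), MHC class I genes (14), keratins (10), milk genes (10) and secreted factors (14) had medians of 0.02, 0.37, -0.09, -0.68 and 0.14, with 0, 0, 1, 2 and 2 genes at an unadjusted p under 0.05. DESeq2 called none of them.

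The 5 genes that fell included 4 of skeletal muscle, named after their values were seen. Acta1, skeletal alpha-actin, had 199 UMIs in BPK vehicle, 27 in PK 4NQO and 1 in each BPK 4NQO library (log2 change -7.41, SE 0.98, adjusted p = 4.30e-10 by edgeR). Of the 199 UMIs 89 were in 1 cell, and 109 cells held any. Tnnt3 and Tnnc2, troponin subunits of fast muscle, had 67 and 107 UMIs in BPK vehicle, 9 and 25 in PK 4NQO, 0 and 2 in replicate 1 and 0 and 0 in replicate 2. Mylpf, a myosin light chain, had 104, 30, 19 and 3. Alveolar cells of the same libraries held Acta1 at 13.7, 2.43, 0.175 and 0 CPM, also highest in BPK vehicle. No muscle marker list was set, and the part of muscle transcripts from outside these cells was not tested. The fifth gene was the predicted model Gm10800, with 83, 16, 10 and 2 UMIs.

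The genes that rose included several that 1 cell or 1 library decided. Cst6, a cysteine protease inhibitor, was at 0.782, 0.905, 1.16 and 149.8 CPM, and of its 447 UMIs in replicate 2 436 were in 1 cell. Without the top cell of each library its log2 change was 1.85 and not called (adjusted p = 1 by edgeR), against 6.15 with it. Spink5, a protease inhibitor of skin, had 85 of its 95 UMIs of replicate 2 in 1 cell. Of the 19 genes called in either direction, 10 were called again without the top cells: Ctsr, Ubd, Cxcl9, Ccl8, Alox12e, Gm10062 and 5830416I19Rik higher, and Acta1, Tnnc2 and Gm10800 lower. Gm10062 and 5830416I19Rik had 83 and 97 UMIs in replicate 2 and none in replicate 1. Left to cells with a UMI of Prlr, Stc2 or Cxcl15 and fewer than 2 of Krt5 and Krt14, 7 genes rose and 4 fell.

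The genotype comparison asked how BPK 4NQO differed from PK 4NQO, that is, Brca1 wt/flox from Brca1 wt/wt under the same treatment. It used the same BPK 4NQO libraries as the treatment comparison, so the 2 are not independent. Of 12068 genes 16 were higher in BPK (0.133%) and 2 were lower (0.0166%), and DESeq2 called Ctsr alone. With 1 PK library, the genotype and that library's own preparation cannot be told apart. Its counts also came from an earlier Cell Ranger release than the others.

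Ctsr was higher by a log2 change of 6.97 (SE 1.49, adjusted p = 0.00548 by edgeR) against PK 4NQO, side by side with 5.61 against BPK vehicle. It stayed called under the 9 alternatives that gave a test, with changes from 6.95 to 7.44 and adjusted p from 2.5e-08 to 0.0111. Ubd was higher by 6.32 (SE 1.25, adjusted p = 0.00187 by edgeR), a mean level 106.9-fold that of PK 4NQO with a counting interval of 19.2 to 4223 for the 1 UMI there. Cxcl9, Cxcl5 and Saa3 were also called, at 5.70, 5.89 and 6.38, each from 1 UMI in PK 4NQO. Without the top cell Cxcl5 and Saa3 lost their edgeR calls (adjusted p = 0.709 and 0.225). Cxcl9 lost its call with doublets removed (adjusted p = 0.179), with thinned cells (0.128) and without members with markers of another class (0.435). Krt16, a keratin of stressed epidermis, named after its values were seen, was at 2.97, 1.58, 14.4 and 65.4 CPM and was called at 4.31 (adjusted p = 0.0174 by edgeR), which was 3.17 without replicate 2. Acta1 and Tnnc2 were the 2 lower genes, at -5.06 and -5.03. Neither was called by edgeR when only the compared libraries were fitted (adjusted p = 0.206 and 0.259) or with thinned cells, and Tnnc2 was not called without the top cell (adjusted p = 0.274). Cst6, at 5.95, again rested on 1 cell.

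No hormone gene passed in the genotype comparison. Of the receptors, paracrine signals, prolactin pathway genes and lineage factors (4 lists), edgeR and DESeq2 called none, and none had an unadjusted p under 0.05. The medians were -0.06, -0.07, -0.09 and -0.43, beside 0.01 over all genes. The type I interferon genes had a median of 0.75 with none of 18 called by either tool and 3 at an unadjusted p under 0.05. Among the lineage factors Myb was at 32.1, 52.7, 30.4 and 35.5 CPM and Tox3 at 18.9, 32.1, 19.9 and 22.1, each highest in PK 4NQO. Cxcl14, a chemokine of epithelium, was at 71.3, 156.3, 81.9 and 52.6, and it too was highest in PK 4NQO.

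The last comparison asked whether the change with 4NQO differed between hormone-sensing and alveolar cells of the same libraries. Of 12818 genes, 10 had a lower log2 change in hormone-sensing than in alveolar cells (0.078%) and 8 a higher one (0.0624%) by edgeR's test of the difference. The 10 were 8 interferon or antigen-presentation genes, Ly6a, Iigp1, B2m, Ifitm3, H2-T22, H2-Q6, Oasl2 and Rtp4, and Jchain and Penk, whose values rested on single cells. The calls depended on the processing. DESeq2 called Ly6a alone, edgeR called 0 genes with doublets removed (237 at an unadjusted p under 0.05, adjusted p for Ly6a 0.123), and Ly6a alone passed with cells thinned to 2000 UMIs.

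Ly6a encodes Sca-1, a surface protein used to sort hormone-sensing luminal cells and a gene that interferon induces. In hormone-sensing cells it was at 684.7, 564.3, 842.3 and 428.7 CPM, and both BPK 4NQO libraries lay on either side of BPK vehicle. In alveolar cells it was at 29.2, 50.2, 207.7 and 197.2 CPM, and both BPK 4NQO libraries lay above the other 2. The difference of the changes was -2.92 on the log2 scale (SE 0.34, adjusted p = 5.02e-14 by edgeR). Over the alternatives that gave a test it ran from -2.86 to -3.13, with adjusted p from 1.73e-15 to 0.123. Without replicate 1 it was -3.41 and without replicate 2 -2.42.

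Iigp1 was at 39.1, 67.6, 88.5 and 339.9 CPM in hormone-sensing cells and at 3.5, 20.7, 66.5 and 97.9 in alveolar cells. It was thus higher in hormone-sensing cells in every library, and the difference of the changes was -2.36 (SE 0.41, adjusted p = 3.51e-05 by edgeR). It was -1.66 without replicate 1 and -2.96 without replicate 2. B2m, the light chain of MHC class I, was at 842.2, 1404, 2266 and 1081 CPM against 326.1, 1278, 2903 and 1044 in alveolar cells (difference -1.48, SE 0.30, adjusted p = 0.00129 by edgeR). In BPK vehicle hormone-sensing cells held more B2m than alveolar cells, and in replicate 2 the classes were nearly level. Ifitm3, a membrane protein that blocks viral entry, was at 493.6, 793.4, 697.7 and 544.7 CPM against 225.7, 396.3, 864.3 and 645.2 (difference -1.36, adjusted p = 0.0144 by edgeR). H2-T22, a nonclassical MHC class I gene, was at 39.9, 39.8, 52.8 and 26.1 CPM against 19.9, 43.8, 96 and 25.7, and its difference of -1.50 was -0.97 without replicate 1. H2-T22, Oasl2 and Rtp4 lost their calls with no low-count filter (edgeR adjusted p = 0.0943, 0.0762 and 0.0762). H2-T22 and H2-Q6 have close paralogs, and reads may be split among them.

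Over the lists, 2 of 19 tested type I interferon genes (Oasl2 and Rtp4), 1 of 15 interferon gamma-induced genes (Iigp1) and 1 of 14 MHC class I genes (B2m) were called, all with the smaller change in hormone-sensing cells. DESeq2 called none of these 4. On the scale of log2(CPM + 0.5), the mean of BPK 4NQO against BPK vehicle had a median change over the type I interferon list of 1.81 in hormone-sensing and 2.74 in alveolar cells. For the interferon gamma list the medians were 1.43 and 2.83, and for MHC class I 0.51 and 1.31. Over all genes tested they were 0.20 and 0.21. The change was smaller in hormone-sensing cells for 15 of 19, 12 of 15 and 13 of 14 genes, against 6546 of 12818 (51.1%) of all genes. These lists were chosen with earlier results of these data known. Against basal cells in place of alveolar cells, Ly6a was called (-3.13, adjusted p = 0.00228 by edgeR), and the other 7 of these genes were not. Their differences were -3.46 for Iigp1, -3.63 for Rtp4, -2.79 for Oasl2, -1.50 for H2-Q6, -0.81 for H2-T22, -0.51 for B2m and -0.19 for Ifitm3, with edgeR adjusted p from 0.0564 to 1.

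**Figure D4:**
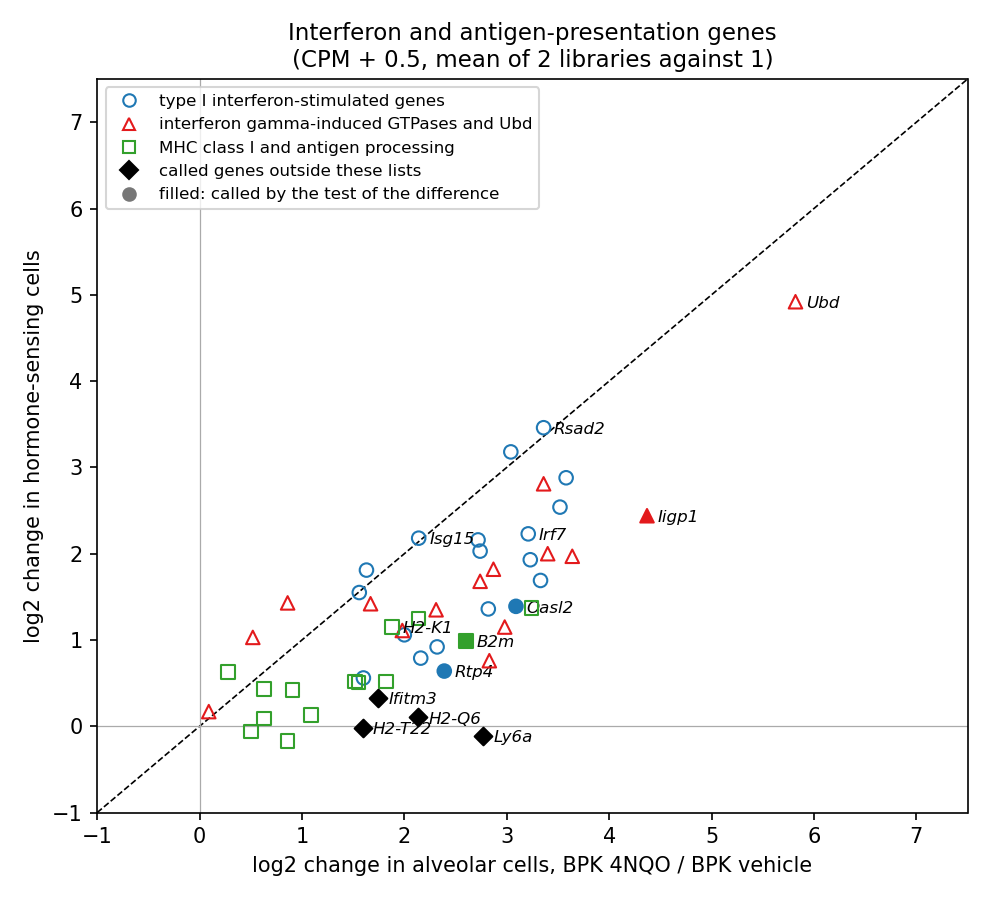
Change of interferon and antigen-presentation genes with 4NQO in alveolar cells (x axis) and hormone-sensing cells (y axis), as log2 of CPM + 0.5 for the mean of 2 BPK 4NQO libraries over 1 BPK vehicle library; filled symbols mark genes called by the edgeR test of the difference and the dashed line equal change. Of the 14 MHC class I genes 13 lie below the line, and Ly6a is at -0.11 in hormone-sensing and 2.77 in alveolar cells.

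Promoters are shown for the 2 MHC class I genes among the called that held the core of the interferon-stimulated response element, the letters GAAA, 2 bases of any kind and GAAA again, read on both strands, in the 250 bases before the start. The RefSeq table (GRCm38.p6) held promoters for B2m, Ifitm3, H2-T22, Oasl2 and H2-Q6. This core was found in 3.04% of 27025 promoters cut to the same length. Capitals mark the match.
B2m: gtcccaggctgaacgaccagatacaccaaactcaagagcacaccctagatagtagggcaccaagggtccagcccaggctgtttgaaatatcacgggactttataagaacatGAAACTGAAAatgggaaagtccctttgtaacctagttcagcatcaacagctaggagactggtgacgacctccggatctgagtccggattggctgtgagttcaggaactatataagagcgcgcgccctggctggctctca
H2-T22: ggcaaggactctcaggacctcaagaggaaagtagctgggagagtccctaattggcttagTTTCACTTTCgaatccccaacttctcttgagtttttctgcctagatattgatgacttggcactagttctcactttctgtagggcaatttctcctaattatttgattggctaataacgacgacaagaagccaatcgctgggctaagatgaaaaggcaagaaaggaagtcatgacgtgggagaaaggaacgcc
The B2m sequence is chr2:122147437-122147686, plus strand, with the match starting 139 bases before the start. The H2-T22 sequence is chr17:36042743-36042992, minus strand, with the match on the opposite strand, its first printed base 191 bases before the start. The windows of Ifitm3, Oasl2 and H2-Q6 held neither this core nor TTCNNNGAA, the core of a STAT site, which is in 7.18% of promoters. A match describes the letters only and is not a measured site.

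The 8 genes with the larger change in hormone-sensing cells were of other kinds. Fabp5, a fatty acid carrier of keratinocytes, was at 8.76, 9.05, 37.8 and 101.6 CPM in hormone-sensing cells and at 47.4, 47.3, 52.8 and 52.8 in alveolar cells (difference 2.64, SE 0.38, adjusted p = 4.01e-08 by edgeR). Of its 327 and 303 UMIs in BPK 4NQO, 191 and 148 were in 1 cell each. Without the members with markers of another class its difference was 0.58 and not called (adjusted p = 1 by edgeR). Krt5, a basal keratin (19.2, 34.4, 48.3 and 151.5 CPM), was also called at 1.77, and Csn2, a milk casein, at 2.68 from 5, 15, 65 and 17 UMIs, 49 of the 65 in 1 cell. The Krt5 difference was 0.07 without the members with markers of another class. That filter removes cells by their own Krt5 and Krt14 UMIs, so the value is no check on the Krt5 call. The other 5 were Gm42418, Pi16, Dmkn, Spink5 and 4930486L24Rik, named after their values were seen. The sum of 8 basal markers in hormone-sensing cells was 409, 606, 502 and 826 CPM, with all 8 detected in each library.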

How the data were processed

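The authors deposited UMI counts per gene and barcode for 27998 genes, made by Cell Ranger on the mm10 build, per the file headers. Release 3.0.2 was used on PK 4NQO and release 5.0.1 elsewhere. The labels' protocols name 10x 3' version 2 chemistry and give no options for cell calling. Barcodes of BPK 4NQO replicate 2 hardly overlap the others (at most 2 shared, against 78 to 107), so its library preparation may differ from that label. The 4NQO dose was not used because its unit is in doubt.

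The members and gene lists were chosen with earlier results of these data known. Counts of the cells of each class were summed per library (2983418 to 8659530 UMIs for hormone-sensing cells), filtered with filterByExpr, scaled by TMM and tested with edgeR 4.0.16 (limma 3.58.1, R 4.3.3) as 3 groups over 4 libraries, with 1 residual degree of freedom and Benjamini-Hochberg adjustment over all genes. The test of the difference between classes had the library as a block. Each SE was worked back from edgeR's F statistic, as the absolute log2 change divided by the square root of F. DESeq2 1.42.0 was an alternative. Genes of the rule, fitted with the rest, are not named as findings. Doublets were scored with scrublet in scanpy 1.11.5 and kept in the main values, and the alternative without them left out the top 0.8% per 1000 barcodes. Shares carry exact Clopper-Pearson intervals at 95%, which cover counting error only.

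Genes were named by 3 rules: the called genes with the largest changes, up to 10 per side, at 32 CPM or more on average, outside the rule and other classes' markers (Ctsr and Cst6 for treatment and genotype; Ly6a, Iigp1, B2m, Ifitm3, H2-T22 and Fabp5 for the class difference); the 19 gene lists; and the 20 genes with at least 100 CPM in each library with the highest ratio to other barcodes. Others are said to be chosen after their values were seen. Coordinates come from GENCODE M21 on GRCm38. A gene of the interferon lists is not reported here.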

Additional observations from a re-analysis of the deposited data

Results flagged for a closer look

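The change with 4NQO differed between hormone-sensing and alveolar cells by a test of the difference for 6 genes of the naming rule. The difference, hormone-sensing minus alveolar on the log2 scale, was -2.92 for Ly6a, -2.36 for Iigp1, -1.50 for H2-T22, -1.48 for B2m and -1.36 for Ifitm3, and 2.64 for Fabp5. By DESeq2 and with thinned cells Ly6a alone kept its call, and with doublets removed none did. With doublets removed the differences were -3.04 for Ly6a, -2.38 for Iigp1, -1.58 for H2-T22, -1.60 for B2m, -1.47 for Ifitm3 and 3.12 for Fabp5.

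The tumor library, which entered no comparison, held 236 barcodes that meet the selection rule among 1586 Krt8/Krt18-positive ones. Prl8a9, a gene of the placental prolactin family, was at 98.4 CPM there (428 UMIs in 28 cells) and at 0 UMIs in the hormone-sensing cells of all 4 gland libraries. These tumor barcodes differed from the gland cells. They held Krt14 at 10327 CPM, Prlr at 295.5 and Esr1 at 13.1, against 107.9 to 451.5, 1711 to 3156 and 64.4 to 82.8 in the gland libraries, and Ctsr UMIs in 2 cells.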

How the results depend on the processing

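For treatment 19 genes were called in the main test, and the number was 6 by DESeq2, 6 with cells thinned to 2000 UMIs, 11 without members with markers of another class and 10 without the top cell of each gene. For genotype 18 were called, and the number was 1 by DESeq2, 4 thinned and 11 without the top cell. For the difference between classes 18 were called, and the number was 1 by DESeq2, 0 with doublets removed (237 at an unadjusted p under 0.05), 1 thinned and 3 against basal cells. RLE factors, no low-count filter, the marker threshold of 10 per 10000 and only the compared libraries kept each count within 1.5 times. The alternatives without other-class markers and without the top cell, and the share with Upk3a/Fgb barcodes were chosen after seeing the data. Leaving out either BPK 4NQO library leaves no residual degrees of freedom, so fold changes only were recomputed. The Jchain difference between classes, from 521 of 522 vehicle UMIs in 1 cell, reversed to 2.36 with doublets removed and to 0.58 without members with markers of another class. The cause of these changes was not tested.

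The share of Krt8/Krt18-positive barcodes in BPK vehicle, PK 4NQO and BPK 4NQO replicates 1 and 2 was 24.96%, 26.56%, 37.5% and 35.34% thinned, 31.62%, 33.64%, 38.87% and 35.68% with Upk3a/Fgb barcodes, and 11.1%, 13.82%, 18.38% and 9.109% of all barcodes. With a mitochondrial limit of 10% it was 15.74% in BPK vehicle and 28.5% in replicate 1. The log2 ratio of the share was 0.54 thinned, 0.24 with Upk3a/Fgb barcodes, 0.22 of all barcodes, and 0.76 to 0.83 leaving out 1 replicate. No paired analysis was possible because BPK vehicle and PK 4NQO had 1 library each.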
